A study of Mus musculus with 6 samples.

Results

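Skint7, Skint8, Lce1g and Crct1 are 4 genes from families or a gene block known from skin. Their transcripts were at or near 0 in mouse kidney fibroblasts cultured alone. All 4 genes were counted in every fibroblast library cultured beneath T helper 17 (Th17) cells. They were chosen by name, from earlier results of this same comparison, out of 34745 genes in the expression table. Their rise with Th17 cells is therefore a description, and no test of it is given. All 4 passed the filter on low counts, which they could pass through the cocultured libraries alone.

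The study dealt with how Th17 cells, T helper cells that secrete interleukin-17, are recruited to the kidney in disease. Its coculture, used here, asked how these cells promote fibrosis through kidney fibroblasts. RNA was sequenced from primary renal fibroblasts grown out of digested kidneys of wild-type (WT) mice, and the study's methods name Balb/c as the strain of its animals. In the first group, of 3 libraries, the fibroblasts received no treatment. In the other, also of 3 libraries, fibroblasts attached for 6 h and then spent 24 h under a transwell insert with pores of 0.4 µm that held induced Th17 cells, and the fibroblasts of the lower chamber were collected. The labels name neither an empty insert nor another T cell as a control, so effects of the insert, of T cells in general and of Th17 cells cannot be told apart. The sources used here do not state whether libraries of a group came from separate cultures or animals, so the spread between them may be technical. Xist and 4 Y-linked genes each had more than 200 counts in every library, so both groups held RNA from female and male animals.

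Total counts per library lay between 12050529 and 13209581. No library was a copy of another. The cocultured replicate 3 stood furthest from its group, with a chi-square per gene of 14.3 and 13.2 against the other cocultured libraries, which differed from each other by 8.07, and with 6.07 to 6.97 among the lone libraries. Values without that library are given for Skint7 and Lck, and for the neighbours and lists in which it changed a number of calls. Of 13088 genes tested with edgeR, 11.6% passed the threshold used throughout (fold above 2 with an adjusted p below 0.05). As shares of all genes tested, 3.87% were higher and 7.78% lower with Th17 cells. Every cocultured library lay above every lone library in 24.3% of the genes tested. The share with the opposite order is not given, so groups without overlap in genes that fell have no background here.

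The Skint genes (selection and upkeep of intraepithelial T cells) encode membrane proteins of the immunoglobulin superfamily that resemble butyrophilins and are known from thymic epithelial cells and from keratinocytes of the skin. Their founding member, Skint1, is needed in mice for the development of the gamma-delta T cells that settle in the epidermis. Lce1g encodes a late cornified envelope protein, one of the small proteins that are cross-linked beneath the membrane of keratinocytes in the outermost skin layers. Crct1 encodes a small cysteine-rich protein. Lce1g and Crct1 lie in the epidermal differentiation complex, a block of skin genes that also holds involucrin, the small proline-rich proteins and many S100 genes.

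The stretches just upstream of Skint7 and Skint8 are shown first, because they share a sequence whose longest identical run was in no other promoter entry. Of the 4 genes, 3 matched the RefSeq promoter table of build GRCm38.p6, and only the bases before the start in the deposited table are printed, on the strand of the gene. For Skint7 these are chr4:111972677-111972922 and for Skint8 chr4:111919305-111919391, both on the plus strand. Capitals mark the shared stretch.
Skint7 upstream: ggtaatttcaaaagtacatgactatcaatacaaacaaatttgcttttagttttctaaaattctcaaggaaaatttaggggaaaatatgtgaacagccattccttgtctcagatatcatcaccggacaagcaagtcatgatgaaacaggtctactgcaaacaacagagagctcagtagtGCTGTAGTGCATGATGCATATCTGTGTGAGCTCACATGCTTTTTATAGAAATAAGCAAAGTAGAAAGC
Skint8 upstream: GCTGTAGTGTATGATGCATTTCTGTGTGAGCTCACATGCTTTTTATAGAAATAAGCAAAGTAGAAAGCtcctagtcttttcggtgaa

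Compared only up to the deposited Skint7 start, the shared stretch was 68 bases long and identical at 66 of them, without a gap. Counted from its first base, the differences from Skint7 to Skint8 were C10T and A20T. This limit lies 19 bases before the Skint8 start, and the likeness ran on past it. In Skint8 it began at the first base of the window, so bases further upstream were not compared. The longest identical run, of 48 bases, occurred in 2 of 32851 promoter entries, those of Skint7 and Skint8. Entries outside the Skint family were searched for this exact run only, so near matches there were not looked for. The local alignment of both whole windows, which includes bases after that limit, scored 67 (1 per match, -2 per mismatch, gaps penalised), while the highest score against the windows of the 9 other Skint genes was 11 for Skint7 and 10 for Skint8.

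The upstream bases of Lce1g are shown for the letters GGAATG, the core of the motif of TEAD factors. These letters were chosen because the study examined the transcription factor TEAD4, in kidney tubular cells and kidney tissue. It gives no TEAD4 result for fibroblasts. The bases span chr3:92752339-92752588 and are printed on the minus strand, on which the gene lies. Capitals mark GGAATG.
Lce1g upstream: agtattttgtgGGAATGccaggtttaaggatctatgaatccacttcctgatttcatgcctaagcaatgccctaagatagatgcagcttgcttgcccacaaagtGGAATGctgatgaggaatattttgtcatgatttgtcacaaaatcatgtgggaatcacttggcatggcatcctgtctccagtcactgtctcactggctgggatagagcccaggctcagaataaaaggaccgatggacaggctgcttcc

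GGAATG was searched on both strands of windows of 300 bases, and 14.7% of all 32851 promoter windows held it. Lce1g had it 2 times, 239 and 147 bases before its start, Skint7 1 time on the opposite strand, 150 bases before its start, and Skint8 did not have it. The TATA-box letters TATAAA, present in 13.6% of all windows, lay on the opposite strand inside the shared Skint stretch, 27 bases before the Skint7 start and 46 bases before the Skint8 start. The STAT letters TTCNNNGAA, present in 8.3% of windows, were found in Skint8 only, 9 bases before its start. The AP-1 letters TGANTCA (7.8% of windows) and the antioxidant response letters TGACNNNGC (12.4%) were in none of the 3 windows. These matches describe letters and not binding.

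Skint7 (ENSMUSG00000049214, chr4:111972923-111988223 on GRCm38, plus strand, protein-coding, 4 annotated transcripts) was not counted at all in the lone libraries (0 in each), and reached 604, 595 and 872 counts in cocultured replicates 1, 2 and 3. The groups did not overlap, and the third cocultured library was the highest. The mean cocultured level was 52.7 ± 11.9 CPM (counts scaled to a common library size, SD, n = 3). A count of 0 allows up to 3 counts, and against that floor in each lone library Skint7 was at least 208-fold higher with Th17 cells. Without cocultured replicate 3 it was at least 181-fold higher.

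Skint8 (ENSMUSG00000078599, chr4:111919392-111950358, plus strand, protein-coding, 5 transcripts) is the gene next to Skint7 on the same strand, 22.6 kb away with no annotated gene of the table in between. Its counts were 0 in every lone library and 43, 33 and 42 with Th17 cells. Its mean cocultured level was 2.99 ± 0.349 CPM (SD, n = 3), at least 11.8-fold above the floor of 3 counts per library. This fold does not allow for fragments of Skint7 that count for Skint8. The groups did not overlap, and the high Skint7 count of cocultured replicate 3 was not accompanied by a high Skint8 count there.

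Skint7 took nearly all counts of this pair. Skint8 held 6.65% of their summed counts in cocultured replicate 1 (exact 95% interval 4.85 to 8.85), 5.25% in replicate 2 (3.64 to 7.30) and 4.60% in replicate 3 (3.33 to 6.16). These intervals overlap and cover counting error only. Per length, as fragments scaled by gene length and library total (FPKM), Skint7 was 18.4, 23.6 and 27.2 times Skint8 in the same libraries. Reads from one can count for the other: of the 3982 different 50-base words in Skint7 transcripts 6.8% also occur in Skint8, and of the 4685 words of Skint8 5.8% occur in Skint7. Shares of words and shares of counts are unlike measures, so their sizes cannot be compared directly. How much of the Skint8 count, and so of its rise, stems from Skint7 fragments was not tested. How such fragments were assigned is not given in the sources used here. The build named in the processing notes, mm10, represents another strain (C57BL/6J) than Balb/c.

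Lce1g (ENSMUSG00000027919, chr3:92750148-92752338, minus strand, protein-coding, 1 transcript) had 0, 1 and 3 counts in the lone libraries and 36, 41 and 40 in the cocultured ones. The groups did not overlap, and the cocultured counts lay close together. The mean level went from 0.111 ± 0.130 to 2.98 ± 0.277 CPM (SD, n = 3 in each group). The ratio was 27.8, with an exact 95% counting interval of 10.6 to 104. It rested on few lone counts, being 76.0 without lone replicate 3 and 18.2 without lone replicate 1. Of the 870 words of 50 bases in its transcript 17.8% also occur in transcripts of 11 other Lce1 genes, so its count carries the uncertainty of a family of similar genes.

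Crct1 (ENSMUSG00000027913, chr3:93014205-93015687, minus strand, protein-coding, 2 transcripts) had 2, 2 and 1 counts in the lone libraries and 26, 34 and 25 in the cocultured ones. Here too the groups did not overlap. The mean level was 0.133 ± 0.0416 CPM alone and 2.17 ± 0.435 CPM with Th17 cells (SD, n = 3 in each group), a ratio of 16.2 with an exact counting interval of 6.66 to 51.0. No word of 50 bases of Crct1 occurs in a transcript of another gene. Crct1 lies 262 kb from Lce1g, and took 41.9%, 45.3% and 38.5% of their summed counts in the 3 cocultured libraries.

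**Figure D1:**
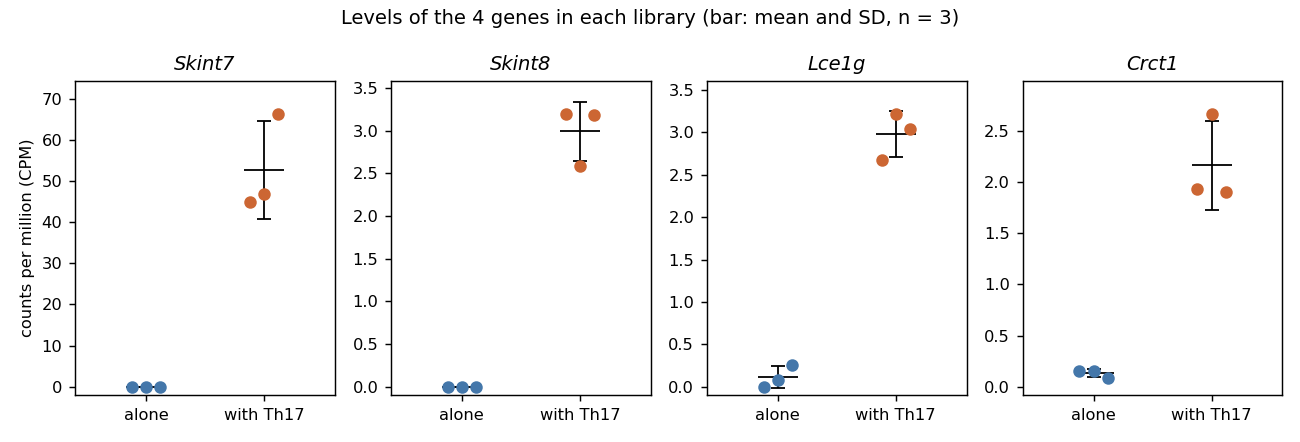
CPM, as on the axis (linear axes from 0, a scale of its own in each panel) of the 4 genes in each library, with points for the 3 libraries of a group and a bar for the mean and SD. All lone libraries lie at or near 0, and the cocultured means are 52.7, 2.99, 2.98 and 2.17 CPM from left to right.

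Compared per length, the 4 genes had different levels in the cocultured libraries. Skint7 was the highest, with 9.66, 9.98 and 14.3 FPKM, a mean of 11.3 ± 2.62 that exceeded the level of 80.2% of the 17936 genes with a count in those libraries. Lce1g followed with 2.96, 3.54 and 3.38 FPKM, above 58.3% of detected genes. Crct1 came next with 1.68, 2.30 and 1.66 FPKM, above 49.0%. Skint8 was the lowest, with 0.524, 0.422 and 0.527 FPKM, above 34.0%. The libraries of neighbouring genes in this order did not overlap, although the smallest gap, between Lce1g and Crct1, was less than 1 FPKM.

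At most 3 counts in each lone library together with at least 20 in each cocultured library was met by 10 of the 34745 genes. The 4 described here were among them. These limits were set after the values had been seen, so they describe the 4 genes and do not test them. Gpr149, Gm43064, Col6a6, Igsf11 and Ggt1 also met the limits. Prl8a9, with 5, 0 and 0 counts alone and 231, 185 and 241 with Th17 cells, was just outside them. Skint7 had the highest CPM of the 10, ahead of Gpr149, an orphan receptor, with 6.39 CPM. With 0 counts required in every lone library 4 genes met the limits, Skint7 and Skint8 among them. In the other direction, from at least 20 counts alone to at most 3 with Th17 cells, 27 genes met the limits.

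No other gene within 500 kb of the 4 loci went from at most 3 to at least 20 counts. Within 500 kb of Skint7 or Skint8, 8 other genes were listed, of which 5 had no count in any library and 2 could be tested. Spata6, a gene of sperm formation that lies 90.2 kb from Skint8, had 254, 183 and 319 counts alone and 234, 235 and 275 with Th17 cells, which gave a log2 difference of -0.10 (SE 0.201, adjusted p = 0.720 by edgeR). Bend5, which encodes a BEN-domain DNA-binding protein and lies 459 kb from Skint8, fell, from 61, 81 and 65 counts to 10, 20 and 13 (log2 fold change -2.33 ± 0.282, edgeR adjusted p = 0.000205). The groups overlapped for Spata6 and did not for Bend5. Bend5 lies inside the longer locus of Agbl4 on the same strand, which had 0, 2 and 2 counts alone and 0 in each cocultured library.

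Around Lce1g and Crct1, 64 other gene identifiers were listed within 500 kb, several of them for the 1 gene Flg, which had no count. Of the 64, 44 had no count in any library, 14 had counts of at most 19 and were not tested, and 6 were tested. Of these 6, 1 rose and 1 fell past the threshold. The 14 genes between Lce1g and Crct1, most of them late cornified envelope genes, had at most 4 counts in any library, and only 4 of them had a count at all.

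Sprr2g, a small proline-rich gene annotated as a polymorphic pseudogene 375 kb from Lce1g, rose from 17, 12 and 10 counts to 28, 35 and 34 (log2 fold change 1.24 ± 0.283, edgeR adjusted p = 0.00784). Ivl, which encodes involucrin, the scaffold of the cornified envelope, lies 176 kb from Lce1g and fell from 95, 97 and 91 counts to 26, 34 and 19 (-1.91 ± 0.221, adjusted p = 0.000157). The groups did not overlap in either gene, and the directions were opposite inside the same complex.

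The other tested neighbours did not pass both criteria. Gm9774 had 354, 344 and 346 counts alone and 534, 463 and 515 with Th17 cells, with an adjusted p of 0.00214 but a log2 difference of 0.46, under the fold limit. Tchh, for trichohyalin of the hair follicle, went from 120, 102 and 91 counts to 66, 68 and 62, with an adjusted p of 0.00417 and a log2 difference of -0.74, and it overlaps a noncoding gene on the opposite strand. Sprr2h (log2 difference 0.94, adjusted p = 0.0860) and Sprr2e (0.20, adjusted p = 0.787) did not pass. Among the untested neighbours, Sprr2d had 19, 10 and 13 counts alone and 0, 4 and 2 with Th17 cells, and was singled out after its values were seen. The Sprr2 genes are close copies of each other, so how reads were divided among them is uncertain.

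**Figure D2:**
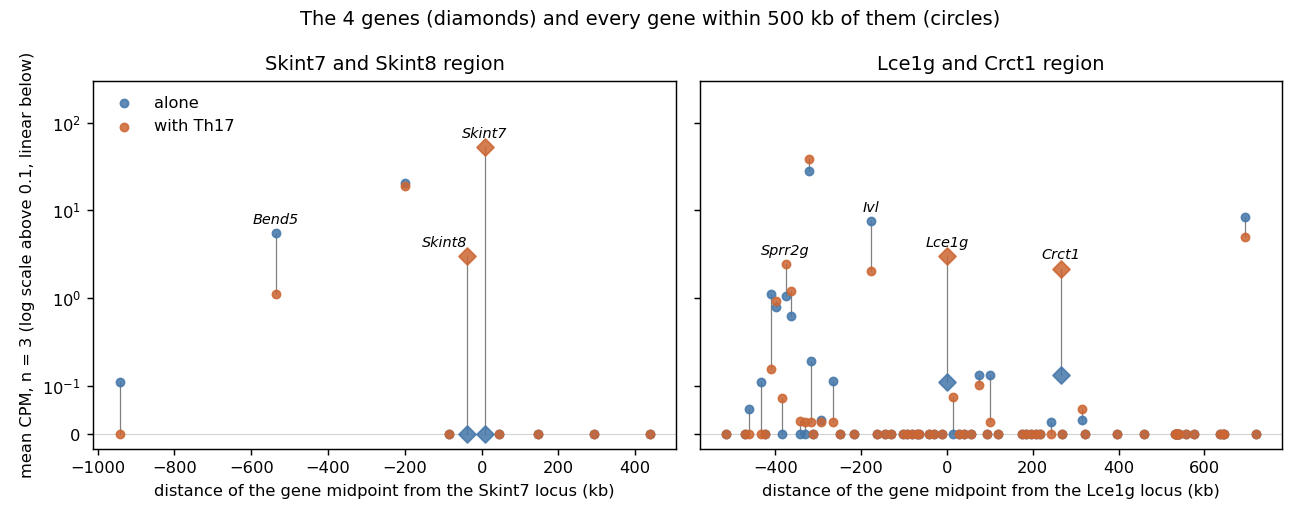
Mean CPM (n = 3, log scale above 0.1 and linear below) of the 4 genes (diamonds) and of every gene within 500 kb of them (circles), alone in blue and with Th17 cells in orange, against distance in kb. The 4 genes rise from the bottom of the plot among neighbours that mostly stay at 0, while Ivl and Bend5 are lower and Sprr2g is higher with Th17 cells.

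No other gene of the Skint family or of the late cornified envelope list had more than 4 counts in a library. The table lists 11 Skint genes, and of the 9 others Skint1, Skint2, Skint3, Skint4, Skint5, Skint9, Skint10 and Skint11 had 0 counts in all 6 libraries. Skint6 had 0, 2 and 1 counts alone and 0 in each cocultured library. Of the 23 other late cornified envelope genes and their neighbours, 18 had no count in any library, 5 had up to 4 counts, and none could be tested. Counts of 0 in a library leave room for up to 3 counts, between 0.223 and 0.254 CPM.

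Of 28 other genes of the cornified envelope and skin barrier 7 were tested, 4 fell and none rose past the threshold. Over all genes tested 7.78% fell. The median log2 fold change was -1.61 beside 0.00 over all genes tested. Apart from Ivl, the genes that fell were Tgm1, the transglutaminase that cross-links envelope proteins (35, 21 and 26 counts to 3, 4 and 2, log2 fold change -3.21 ± 0.408, edgeR adjusted p = 0.000286), Cdsn, for corneodesmosin of the desmosomes of the outer skin (34, 33 and 33 to 4, 5 and 9, -2.52 ± 0.334, adjusted p = 0.000364), and Sbsn, for suprabasin (191, 153 and 157 to 59, 76 and 37, -1.61 ± 0.234, adjusted p = 0.000634). In each of them every cocultured library was below every lone library. Tgm1 and Sbsn overlap other annotated genes on either strand, so their counts are less certain. Of the genes not past the threshold, Tchh and the lipid elongase gene Elovl4 had most counts, and Elovl4 differed by 0.50 on the log2 scale (adjusted p = 0.0453).

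Of the small proline-rich genes 3 of 16 were tested, and Sprr2g alone rose. In some alternatives 1 gene of this list fell past the threshold. These were DESeq2, no filter, leaving out lone replicate 2, and leaving out any 1 cocultured replicate, the third included. Of 13 S100 genes of the complex, which encode small calcium-binding proteins, 8 were tested and 1 fell. S100a10, the partner of annexin A2, went from 1254, 1408 and 1262 counts to 501, 528 and 702 (log2 fold change -1.25 ± 0.127, edgeR adjusted p = 6.37e-05). S100a11 (-0.11, adjusted p = 0.304) and S100a6 (-0.16, adjusted p = 0.446), the S100 genes with most counts, did not pass. The median over the 8 genes was -0.33.

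The keratins, the intermediate filament proteins of epithelia, split. Of 19 keratin genes 5 were tested, 1 rose and 2 fell, with a median log2 fold change of -0.58. Krt20, a keratin of intestinal and urothelial surface cells, rose from 14, 19 and 19 counts to 166, 180 and 198 (3.30 ± 0.189, edgeR adjusted p = 1.50e-06). Krt23 fell from 403, 436 and 384 counts to 17, 23 and 40 (-4.00 ± 0.226, adjusted p = 1.40e-06). Krt19, a keratin of simple epithelia, fell from 198, 171 and 203 to 33, 39 and 25 (-2.63 ± 0.191, adjusted p = 7.45e-06). Krt80 (-0.58, adjusted p = 0.233) and Krt18 (-0.40, adjusted p = 0.441) did not pass.

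Of 20 regulators of epidermal differentiation 8 were tested and 1 rose, with a median of 0.02. Without cocultured replicate 3, 1 gene of this list fell past the threshold. Prdm1, which encodes the repressor Blimp-1 of late keratinocyte and lymphocyte differentiation, went from 28, 19 and 15 counts to 40, 49 and 77 (log2 fold change 1.35 ± 0.321, edgeR adjusted p = 0.00971). Klf4, a factor of skin barrier formation (-0.46, adjusted p = 0.00145), and Maf (-0.35, adjusted p = 0.0108) differed by less than the fold limit.

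**Figure D3:**
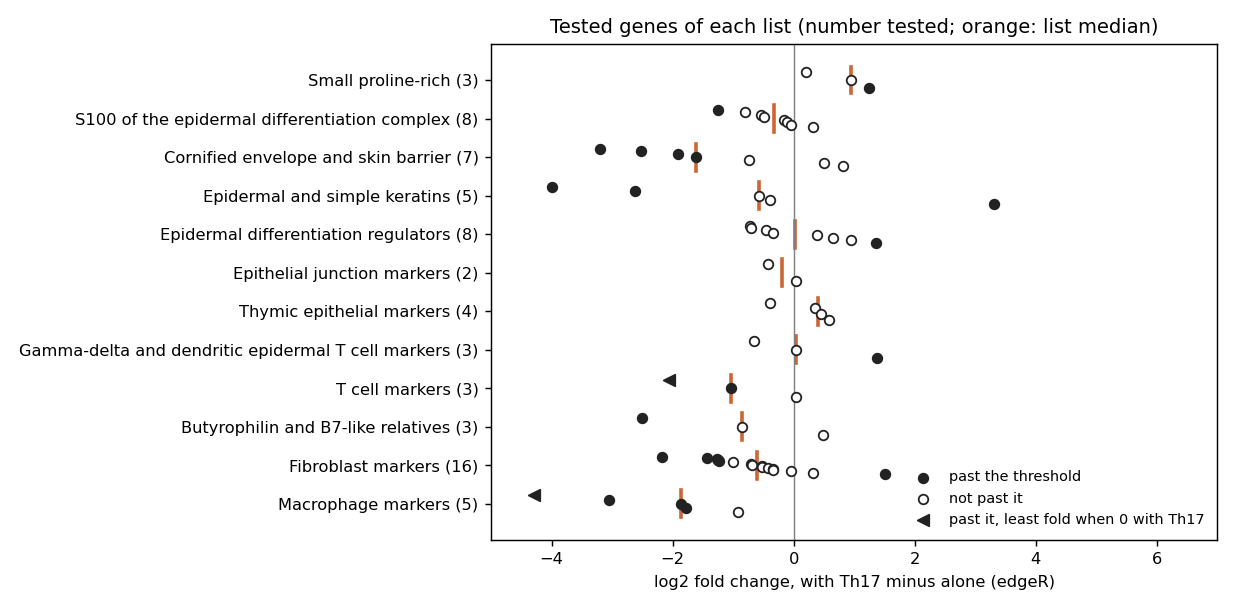
Log2 fold change (edgeR, with Th17 cells minus alone) of the tested genes of each list, filled where past the threshold, with the list median in orange and the number tested in parentheses. Genes at 0 in every cocultured library (Ptprc and Adgre1) are triangles at their least fold. Of the skin lists, the cornified envelope and skin barrier genes have 4 genes lower and none higher, and the 4 genes described here are not plotted.

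The gene families that Skint proteins resemble or act upon were looked at in the same way. Of 16 butyrophilin and B7-like genes 3 were tested and 1 fell: Cd274, for the checkpoint ligand PD-L1, with 1189, 1298 and 1157 counts alone and 230, 222 and 220 with Th17 cells (log2 fold change -2.51 ± 0.0777, edgeR adjusted p = 4.56e-08). Cd276 (-0.85, adjusted p = 6.40e-05) and Cd80 (0.49, adjusted p = 0.0473) differed by less than the fold limit. Of 10 thymic epithelial genes 4 were tested and none passed the threshold (edgeR). An adjusted p below 0.05 was reached by 2 of them, Ly75 (0.58, adjusted p = 0.00329) and Cd40 (0.45, adjusted p = 0.0288), both higher. Of 13 epithelial junction genes Jup (0.04, adjusted p = 0.842) and Cldn1 (-0.42, adjusted p = 0.543) were tested, and neither passed.

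Cell type markers were read beside these results, since in bulk RNA fewer cells of a type and less RNA per cell cannot be told apart. Of 7 keratinocyte markers 6 were at 0 in all cocultured libraries (Krt5, Krt14, Krt1, Trp63, Krtdap and Dmkn), and the summed level of the 7 was 0.466 to 1.35 CPM alone and 0.393 to 0.989 CPM with Th17 cells. Skint7 had 52.7 CPM in coculture, and the part of keratinocytes in the levels of the 4 genes was not tested. The 6 epithelial markers summed to 0.0776 to 0.845 CPM alone and 0.149 to 0.456 CPM in coculture. The 5 thymic epithelial markers summed to 2.71 to 4.42 and 3.12 to 4.18 CPM, most of it Ccl25, with Aire at 0 in coculture. For these 3 sets the ranges of the groups overlapped. The part of epithelial or thymic epithelial cells in the levels of the 4 genes was not tested either.

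T cells were present in the insert, and their markers were read for that reason. The 6 markers summed to 5.82 to 8.61 CPM alone and 4.79 to 5.58 CPM with Th17 cells, nearly all of it Trac and Lck. Cd3d was at 0 in every library, and Cd3g had 3, 0 and 0 counts alone and 0 in each cocultured library. The CPM sums of the groups did not overlap and were lower in coculture. As counts, the sums were 75, 109 and 97 alone and 75, 61 and 67 in coculture, so replicate 1 of both groups tied. Of 19 T cell genes 3 were tested, and 2 fell. Lck, a kinase of the T cell receptor, had 49, 68 and 59 counts alone and 33, 34 and 23 in coculture (log2 fold change -1.04 ± 0.236, edgeR adjusted p = 0.00755). This call was lost without lone replicate 2 (-0.93) and without cocultured replicate 3 (-0.88). Ptprc, for the leukocyte antigen CD45, had 14, 12 and 11 counts alone and 0 in each cocultured library, at least 4.19-fold lower (adjusted p = 0.00102). Trac did not pass (0.03, adjusted p = 0.948).

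Of 14 genes of gamma-delta and dendritic epidermal T cells 3 were tested and 1 rose. Trdc, the constant segment of the T cell receptor delta chain, went from 33, 46 and 36 counts to 120, 85 and 111 (log2 fold change 1.38 ± 0.196, edgeR adjusted p = 0.000559). It overlaps genes on the opposite strand, and the gamma chain genes Tcrg-C1 and Tcrg-V5 were at 0 in every library of both groups. Ahr (-0.65, adjusted p = 0.00253) and Sox13 (0.04, adjusted p = 0.903) did not pass both criteria. The 3 markers of these cells summed to 2.56 to 3.63 CPM alone and 6.68 to 8.92 CPM in coculture. In both groups all of the sum was Trdc. The part of these counts in the Skint result was not tested.

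The fibroblast label held in both groups. The 7 fibroblast markers were all counted and summed to 33712 to 35601 CPM alone and 13992 to 15664 CPM with Th17 cells. Of 16 fibroblast genes, all tested, 1 rose and 5 fell, with a median log2 fold change of -0.61. The proteoglycan gene Dcn rose by 1.50 ± 0.0526 (edgeR adjusted p = 8.73e-08), while the collagen genes Col3a1 (-2.18 ± 0.0840, adjusted p = 1.37e-07), Col1a2 (-1.43 ± 0.0552, adjusted p = 1.37e-07), Col1a1 (-1.27 ± 0.0693, adjusted p = 1.07e-06) and Col5a1 (-1.25 ± 0.0635, adjusted p = 6.95e-07) and the proteoglycan gene Lum (-1.24 ± 0.156, adjusted p = 0.000268) fell. Fn1 (-0.43, adjusted p = 0.000797) stayed under the fold limit, and so, narrowly, did Fbln2, a fibulin gene, with 2750 ± 72.9 CPM alone and 1375 ± 117 CPM in coculture (SD, n = 3, adjusted p = 5.03e-06).

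The 4 macrophage markers summed to 45.0 to 47.5 CPM alone and 8.14 to 10.2 CPM in coculture, groups that did not overlap. Of 5 macrophage genes tested, 4 fell, with a median of -1.86: Lyz2, for lysozyme (log2 fold change -3.05 ± 0.127, edgeR adjusted p = 2.07e-07), the receptor gene Csf1r (-1.78 ± 0.221, adjusted p = 0.000241), Aif1 (-1.86 ± 0.409, adjusted p = 0.00640), and Adgre1, for the F4/80 antigen, with 71, 47 and 55 counts alone and 0 in coculture, at least 19.6-fold lower (adjusted p = 4.50e-05). Cd68 differed by -0.93 (adjusted p = 0.00121). The part of this shift in the levels of the 4 genes was not tested.

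**Figure D4:**
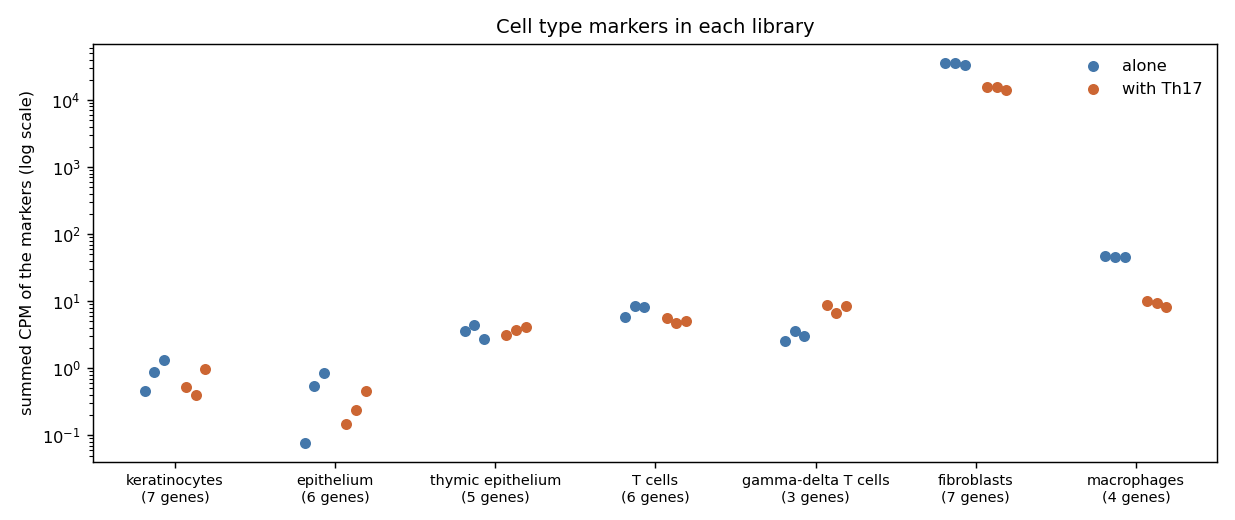
Summed CPM (log scale) of the markers of 7 cell types in each of 3 lone libraries (blue) and 3 libraries with Th17 cells (orange). Keratinocyte, epithelial and thymic epithelial sums overlap between the groups, and fibroblast and macrophage sums are lower with Th17 cells. The gamma-delta sum, all of it Trdc, is higher.

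Lastly, the genes most like each of the 4 over the 6 libraries were listed, by the root mean square difference of log2 CPM centred on each gene's mean, among 13088 genes (prior count 2). Likeness rests on the same contrast and was not tested. Skint7 had no close match: the nearest were Aldh1a3, an enzyme of retinoic acid synthesis (1.17), Prl8a9 (1.27), Ndst4 (1.50), Masp1 (1.67) and Gpr149 (1.72). Aldh1a3 had 12, 22 and 14 counts alone and 1246, 1318 and 1255 in coculture. Genes close to Skint8 were Il13ra2 (0.15), a decoy receptor for interleukin-13, Dio2 (0.16), Grem1 (0.18) and Ccl11 (0.27).

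Lce1g was nearest to A630033H20Rik (0.24), Tmem26 (0.30), Gpr83 (0.33), Upp1 (0.34) and the keratin gene Krt20 (0.36). Crct1 was nearest to Cck (0.18), which encodes the hormone cholecystokinin, Serpina3g (0.21), Hsd11b1 (0.24), Ass1 (0.24) and Tfpi2 (0.25). Between Skint8, Lce1g and Crct1 the difference was 0.55 for Skint8 and Lce1g, 0.62 for Lce1g and Crct1, and 0.72 for Skint8 and Crct1. Skint7 was further from each of them, by 2.03 for Skint8, 2.40 for Lce1g and 2.70 for Crct1. The prior count narrows the change of the genes with few counts.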

How the data were processed

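RNA libraries (VAHTS kit, Illumina sequencing) of 6 fibroblast samples were used. The submitters' processing notes name HISAT2 2.0.4, StringTie 1.3.3b, edgeR and build mm10. The authors deposited fragment counts and FPKM values per gene. Use of strand and the treatment of fragments that fit several genes are not given in the sources used here. In 10223 of 10223 well-counted genes, the gene length implied by count, FPKM and total count was the same over libraries within 2%. Every one of the 34745 rows has a gene name and counts towards the library totals. Of the identifiers, 34267 occur in GENCODE vM21 (GRCm38), 99.9% at an overlapping position.

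Groups came from sample titles. The tests ran in edgeR 4.0.16 under R 4.3.3 (filterByExpr, TMM, glmQLFit and glmQLFTest, Benjamini-Hochberg adjustment over 13088 genes, adjusted p below 0.05 and fold above 2). CPM uses TMM library sizes. A standard error is the log2 fold change over the root of F. The floor is 3 counts, and ratios with 1 to 3 lone counts carry exact intervals. Intervals and floors cover counting error only, as without molecular identifiers several fragments can stem from 1 molecule. On simulated data edgeR recovered 97.5% of 200 changed genes among 13088 with 1 unchanged gene called, DESeq2 1.42.0 95.5% with 0, and limma 3.58.1 on log2(FPKM + 1) 84.5% with 0.

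The members and lists were chosen with earlier results of these data known. The genes named are the 4 members, the Skint family, tested genes within 500 kb of a member locus, in each other list the genes past the threshold and the 2 others with most counts, and the 5 genes nearest each member, apart from 1 that is not reported here. Sequences were aligned with Biopython 1.88. Alternatives were RLE and upper quartile factors, library size only, no filter, at least 10 counts in every library, DESeq2, limma, leaving out each library, a replicate block, no fold limit, glmTreat, and windows of 250 and 1000 kb.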

Additional observations from a re-analysis of the deposited data

How the results depend on the processing

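Over 11 alternatives on the count scale (factors, filter, DESeq2, each library left out) the fold of Skint7 was at least 181 to 223, that of Skint8 at least 11.4 to 12.6, that of Lce1g 18.2 to 76.0 and that of Crct1 13.8 to 17.9. As log2(FPKM + 1), a scale that shrinks changes at low levels, the differences were 3.60, 0.58, 1.95 and 1.37. At least 10 counts in every library removed all 4 genes, and the replicate block, a term of a test, gave no value for them. Over all genes, 506 rose and 1018 fell, against 243 and 548 with glmTreat, 223 and 402 with limma on log2(FPKM + 1), and 2244 and 2612 with no fold limit. Of the neighbours within 500 kb 1 rose and 2 fell. With glmTreat 0 were higher, with limma 0 were higher and 1 lower, and with no fold limit 2 were higher and 3 lower. There were also 3 lower with DESeq2, with no filter, without lone replicate 2 and without each cocultured replicate in turn. Other windows gave 0 higher and 1 lower within 250 kb, and 4 lower within 1000 kb. Of the list genes 5 rose and 19 fell, against 2 higher with glmTreat, 2 higher and 11 lower with limma, and 10 higher and 36 lower with no fold limit. Of 49 named genes with a test 35 kept their side of the threshold in every alternative, and 5 that were not past it changed sign in at least 1 (Jup, Sox13, Spata6, Sprr2e and Trac). Fbln2 crossed the fold limit without lone replicate 1 (-1.02), without cocultured replicate 1 (-1.01) or 2 (-1.05), and with the replicate block. The others lost their call with glmTreat or limma, and Lck also with library size only (-0.98), without lone replicate 2 and without cocultured replicate 3. The cause was not tested. Library size only moved the median of all genes to 0.07, and no direction of a gene past the threshold reversed. The replicate numbers did not pair the libraries (correlations 0.016, -0.026 and -0.004), and with a replicate block 490 genes rose and 1005 fell. Depth limits the lone levels of all 4 genes, which rest on 3 counts or fewer in each library.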
